A study of Bos taurus with 28 samples.

Results

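BoLA and B2M encode the heavy and the light chain of the bovine MHC class I molecule, and both transcripts were measured in the endometrium of heifers after insemination. BoLA (Ensembl ID ENSBTAG00000005182) was taken because it is the MHC class I gene in a list of genes that the study called between its insemination treatments, and B2M (ENSBTAG00000012330) was taken as its partner chain. They make 2 of the 24596 gene IDs that were counted. Because BoLA was drawn from a list called between HF and LF heifers on these same animals, its values in that contrast are given as a description and were not tested. B2M was not taken for its own values, although it too was chosen with earlier results of these data known.

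An MHC class I molecule is a polymorphic heavy chain that carries a peptide from inside the cell, held at the cell surface by the invariant light chain beta-2-microglobulin, the product of B2M. Cytotoxic T cells read the peptide, and natural killer cells sense the heavy chain itself. The peptides are cut by the proteasome, whose interferon-inducible subunits replace the ordinary ones when a tissue sees interferon, and interferon raises class I genes in most cell types. In the cow uterus, class I genes are best known from early pregnancy, when the conceptus secretes interferon tau.

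RNA was sequenced from 1 post mortem uterine biopsy of each of 28 cross-bred heifers after synchronization of oestrus with progesterone, gonadotrophin-releasing hormone and prostaglandin F2 alpha. In the HF treatment 10 heifers were inseminated with frozen-thawed semen from bulls of high field fertility, and in the LF treatment 10 heifers with semen from bulls of low field fertility. The 8 CTRL heifers went through the same hormone treatment but received no semen, so a difference from CTRL covers semen, extender and the act of insemination together. Tissue was taken 12 h after insemination from the intercaruncular endometrium, dissected from the muscle below it, and the semen came from 5 HF and 5 LF bulls, each given to 2 heifers in different runs of the experiment (study replicates 1 and 2). Heifers are named by treatment and number, with HF1 to HF5, LF1 to LF5 and CTRL1 to CTRL4 in study replicate 1. The labels give a Holstein-Friesian background, whereas the study's animal list gives crosses. Limousin crosses made up 4 of the HF, 3 of the LF and 4 of the CTRL heifers, Charolais crosses 4, 5 and 1 of them. Both Belgian blue crosses received HF semen. Aberdeen angus and Simmental crosses each made up 1 LF and 1 CTRL heifer, and a Saler cross made up 1 CTRL heifer. Ages were not given in the sources used here.

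Total counts per heifer ran from 14872812 to 25633259 (median 19315998). BoLA rested on 509 to 3602 reads per heifer and B2M on 13423 to 38430, so counting error was small beside the spread between heifers. Levels are counts scaled to a common library size (CPM). They are not scaled to transcript length and are compared here between heifers, never between genes. No marker of the uterus had a name among the IDs. The epithelial markers KRT8 and ESRP1 and the mesenchymal marker VIM were present in every heifer. The named smooth muscle markers ACTA2, MYLK, SMTN and SYNPO2, 4 of 10 listed, summed to a median of 4876 CPM in CTRL heifers (767 to 8367) against 1051 CPM in HF (574 to 5982) and 1840 CPM in LF heifers (406 to 4393), and none was at 0. This difference accompanies every comparison with CTRL. With the mean log2 CPM of these markers as a covariate, the log2FC of BoLA against CTRL was -0.27 in HF and 0.74 in LF heifers. For B2M it was 0.14 and 0.35. BoLA levels showed little relation to that mean log2 CPM over the 28 heifers (Pearson r = -0.08, permutation p = 0.673; Spearman rho = -0.09, p = 0.661). Without the 2 heifers farthest from its median r was 0.07, and for B2M the value over all heifers was r = -0.03 (permutation p = 0.887). Depth had r = 0.32 with BoLA (log2 total count, permutation p = 0.1; rho = 0.29, p = 0.14), and r was 0.09 without the 2 heifers farthest from the median depth. With the mean of each treatment removed r was 0.40 (permutation p = 0.0365, adjusted 0.151), and 0.27 without the 2 farthest heifers.

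In LF heifers BoLA ran from 49.8 CPM in LF6 to 162 CPM in LF1, with a median of 107. The HF heifers lay between 30.9 CPM in HF8 and 76.4 CPM in HF2, around a median of 57.9. CTRL heifers had a median of 49.2 CPM and ran from 30.7 in CTRL4 to 171 in CTRL5, the highest of all 28 animals. Thus 7 of 10 LF heifers stood above every HF heifer, 4 of 10 HF heifers stood below every LF heifer, and no HF heifer reached the LF median. These counts lie in the contrast that chose BoLA and are a description. The mean was 54.5 ± 15.03 CPM (SD, n = 10) in HF, 108 ± 42.3 CPM (SD, n = 10) in LF and 65.4 ± 46.6 CPM (SD, n = 8) in CTRL heifers. CTRL animals without CTRL5 reached at most 84.8 CPM. In a biopsy of mixed cells, fewer cells that express BoLA and less BoLA RNA per cell cannot be told apart.

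**Figure D1:**
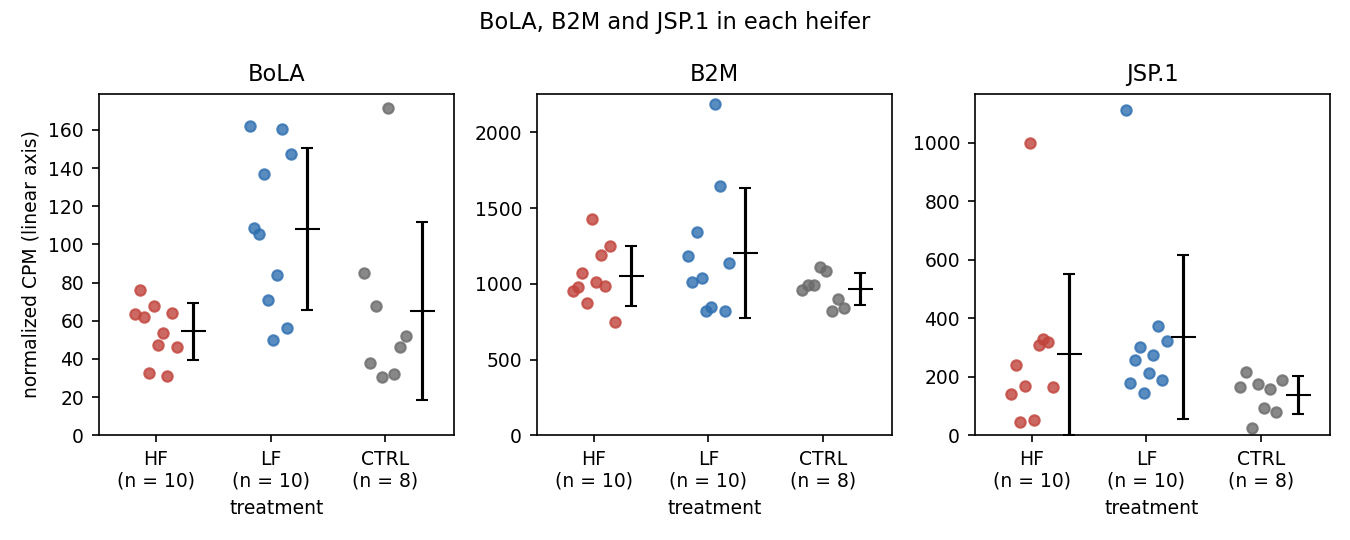
Normalized CPM of BoLA, B2M and the other named class I gene, JSP.1, on linear axes, 1 point per heifer, in HF (n = 10), LF (n = 10) and CTRL (n = 8); the black marks give the mean and SD. For BoLA the LF heifers spread from 49.8 to 162 CPM while the HF heifers stay at or below 76.4, and 1 CTRL heifer stands at 171; for B2M the groups overlap over most of their range.

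In the comparison of HF with LF heifers, BoLA was 2.004-fold lower in HF (log2FC -1.003, standard error 0.22). This is the contrast that chose the gene, so the value is a description. At an adjusted p under 0.05, edgeR called 0 of the 2 genes and 0% of the 14793 genes tested, and DESeq2 called 1 of the 2 (BoLA) and 0.162% of 16664. The selection fixed that call beforehand, and nothing is read from it. The difference in BoLA was of like size in study replicate 1 (log2FC -0.95) and study replicate 2 (-1.06), and it was -1.26 in Limousin crosses alone and -0.76 in Charolais crosses alone. Leaving out each heifer in turn kept it between -1.09 and -0.92.

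The bulls give another view of the same values, since both heifers of a bull received his semen in separate study replicates. Mean BoLA over the heifers of a bull was 96.1 to 133 CPM for the 5 LF bulls and 46.5 to 65.1 CPM for the 5 HF bulls, and these ranges did not overlap. BoLA was chosen in this contrast, so the separation is a description. The share of all genes with such a separation was not computed. Within a bull the pair of heifers could differ by more than the bull means did. The heifers of LF bull 1 stood at 162 and 49.8 CPM, a 3.25-fold difference, and those of LF bull 4 at 137 and 56.2 CPM. LF bull 5 had 70.96 CPM in the first study replicate and 148 CPM in the second. Across LF bulls the median fold between the heifers of a bull was 2.08, against 1.38 between the highest and the lowest bull mean. For HF bulls these folds were 1.46 and 1.40. The folds are unlike measures, since a mean over a pair varies less than single heifers do. The heifers of a pair also came from different study replicates. Summing the counts of each bull left the log2FC at -0.99.

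**Figure D2:**
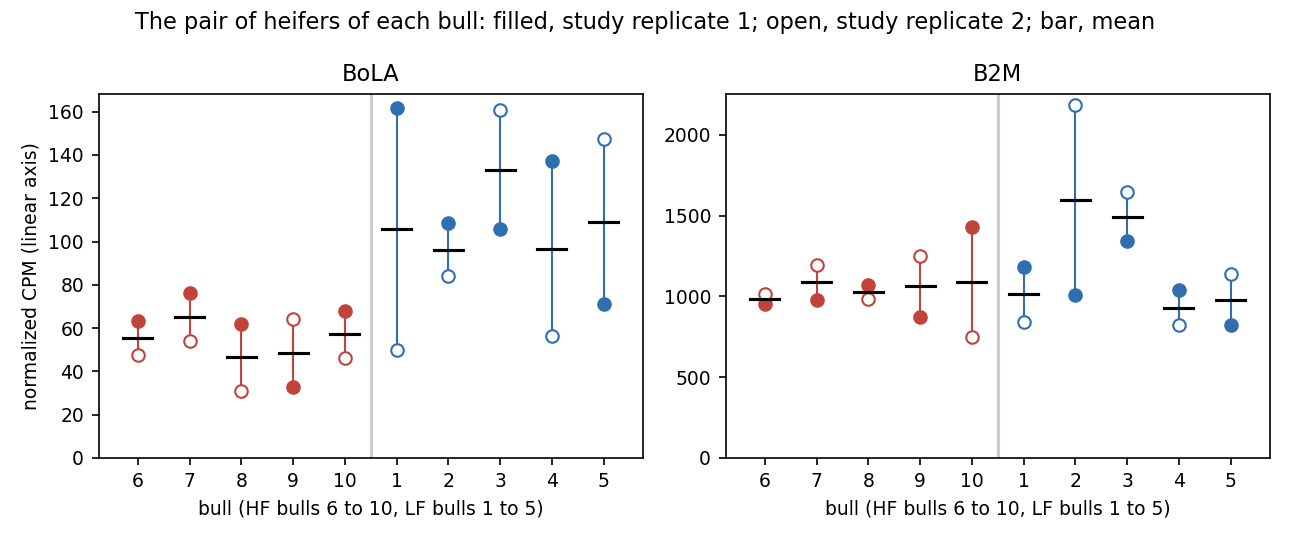
Normalized CPM of BoLA (left) and B2M (right) on linear axes in the pair of heifers of each bull, with filled points for study replicate 1, open points for study replicate 2 and a black bar at their mean. Every LF bull mean for BoLA (96.1 CPM or more) lies above every HF bull mean (65.1 CPM or less), although the heifers of LF bull 1 differ 3.25-fold, and the B2M means of HF and LF bulls overlap. For BoLA this is a description, because the contrast of HF with LF chose the gene.

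Both comparisons with CTRL share the same 8 CTRL heifers. They also share their 10 HF or 10 LF heifers with the contrast that chose BoLA, so the p-values of BoLA in them are not free of that choice. Between LF and CTRL heifers the log2FC of BoLA was 0.73 (standard error 0.33), a 1.66-fold higher level, at an edgeR adjusted p of 0.874, and did not pass. All 10 LF heifers lay above the CTRL median, and all 10 lay below CTRL5. Between HF and CTRL heifers it was -0.26 (standard error 0.29, edgeR adjusted p = 0.686), and 6 of 10 HF heifers lay above the CTRL median. CTRL5 decided the direction of this value: without it the log2FC was 0.12, and that of LF against CTRL became 1.11. Within study replicate 1, which does not hold CTRL5, the values were 0.13 for HF and 1.08 for LF against CTRL, and within study replicate 2 they were -0.62 and 0.41. In Limousin crosses alone they were -0.66 and 0.59. CTRL5 is 1 of the 4 Limousin CTRL heifers there, and the others ran from 30.7 CPM in CTRL4 to 37.8 CPM in CTRL2. For both comparisons edgeR called 0 of the 2 genes and 0% of all genes tested. DESeq2 called 2.11% and 0.0104% of genes in these comparisons and neither BoLA nor B2M.

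B2M varied less between heifers than BoLA in each treatment, though only slightly less in LF heifers (35.8% against 39.1% of the mean). Its levels ran from 750 CPM in HF10 to 1431 CPM in HF5 (median 998) in HF heifers, and from 821 CPM in LF5 to 2184 CPM in LF7 (median 1087) in LF heifers. In CTRL heifers B2M stayed between 818 and 1109 CPM, with a median of 977. The groups overlapped, and the highest values were those of LF7 and LF8 (1648 CPM), the only LF heifers above every HF heifer. Mean B2M was 1050 ± 197 CPM (SD, n = 10) in HF, 1203 ± 431 CPM (SD, n = 10) in LF and 963 ± 106 CPM (SD, n = 8) in CTRL heifers. The log2FC of B2M was 0.13 in HF against CTRL (standard error 0.12, edgeR adjusted p = 0.616), 0.33 in LF against CTRL (standard error 0.18, edgeR adjusted p = 0.874) and -0.21 in HF against LF (standard error 0.17, edgeR adjusted p = 0.804). None of these passed the test. LF7 carried much of the last pair of values, which were 0.19 and -0.07 without that heifer. In study replicate 1 alone they were 0.09 and -0.03, and in study replicate 2 alone 0.58 and -0.37. Among Limousin crosses alone both changed sign, to -0.03 and 0.05.

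BoLA and B2M therefore stood in a ratio that varied between heifers. Per 100 normalized counts of B2M there were 5.24 ± 1.39 counts of BoLA in HF (SD, n = 10), 9.35 ± 3.34 in LF (SD, n = 10) and 6.66 ± 4.15 in CTRL heifers (SD, n = 8). The lowest ratio was 2.77 in CTRL4 and the highest 15.8 in CTRL5, the heifers with the least and the most BoLA. LF7, with the most B2M, had 3.84, the lowest ratio of the LF heifers. These ratios are a description, since they hold BoLA in the contrast that chose it.

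JSP.1 (ENSBTAG00000020116), a bovine class I heavy chain gene of the same cluster, was the only other gene with a class I name among the IDs that could be named. HF heifers ran from 44.6 CPM in HF3 to 1001 CPM in HF5 (median 204), LF heifers from 145 CPM in LF5 to 1113 CPM in LF1 (median 265), and CTRL heifers from 25.9 CPM in CTRL3 to 217 CPM in CTRL2 (median 162). In HF and LF a single heifer stood far above the others, whose next highest values were 329 and 373 CPM. The heifers of 1 bull differed up to 7.37-fold (HF bull 8). Relative to CTRL the log2FC of JSP.1 was 1.005 in HF (standard error 0.50, edgeR adjusted p = 0.329) and 1.29 in LF heifers (standard error 0.41, unadjusted p = 0.00491, edgeR adjusted p = 0.874). Between HF and LF it was -0.29 (standard error 0.46, edgeR adjusted p = 0.950). Without HF5 the HF against CTRL value was 0.51, and without LF1 that of LF against CTRL was 0.86. In Limousin crosses alone these values were 0.42 and 0.50, and with breed as a covariate that of HF against CTRL was 0.59. The HF against LF value of JSP.1 turned with the animals used. It was 0.13 without LF1, -0.78 without HF5 and -0.77 with breed as a covariate. It was -0.09 in Limousin crosses alone, where BoLA was at -1.26, and -1.28 in Charolais crosses alone, where BoLA was at -0.76. The Charolais crosses include LF1, whereas the other Charolais LF heifers ran from 145 CPM of JSP.1 in LF5 to 273 CPM in LF7. Charolais crosses without LF1 were not fitted, so no difference between breeds is read from these values. The difference between the genes was not tested.

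BoLA and JSP.1 did not keep a fixed ratio. The counts of BoLA per count of JSP.1 ran from 0.0679 in HF5 to 2.61 in CTRL3, with a median of 0.312 over the 28 heifers. Per 100 normalized counts of B2M, the median of JSP.1 was 23.3 in HF, 22.7 in LF and 16.5 in CTRL heifers, where that of BoLA was 4.93, 9.19 and 5.66. BoLA and JSP.1 summed to medians of 265, 360 and 223 CPM in these groups. That sum holds BoLA and is a description. CTRL5, first in BoLA, had 93.5 CPM of JSP.1, below the CTRL median, whereas HF5, with 1001 CPM of JSP.1, had 67.9 CPM of BoLA. Class I genes are near-identical in sequence, differ in number and allele between animals, and were counted from uniquely mapped reads, so reads of 1 gene may be lost or given to another depending on the alleles of a heifer. Alleles and shared reads were not tested, and the levels of BoLA and JSP.1 are uncertain to that extent. RefSeq gives BoLA as symbol or synonym to 4 genes, all on the chromosome of BOLA-DRA, and the gene described here is identified by its Ensembl ID.

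The spread between heifers of a treatment set the genes apart from each other. The SD of log2 CPM within treatments was 0.63 for BoLA, higher than in 91.2% of the 4804 genes of like mean level, whose median SD was 0.31. For JSP.1 the SD was 1.07, higher than in 99.5% of 1836 genes of like mean. For B2M it was 0.33, which is higher than in 25.3% of 178 genes. In percent of the mean, BoLA varied by 27.6% between HF, 39.1% between LF and 71.3% between CTRL heifers, and B2M by 18.7%, 35.8% and 10.98%. JSP.1 varied by 99.1%, 83.8% and 46.6%, more than BoLA in HF and LF but less in CTRL heifers. Of these, the CTRL value of BoLA rests on CTRL5.

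**Figure D3:**
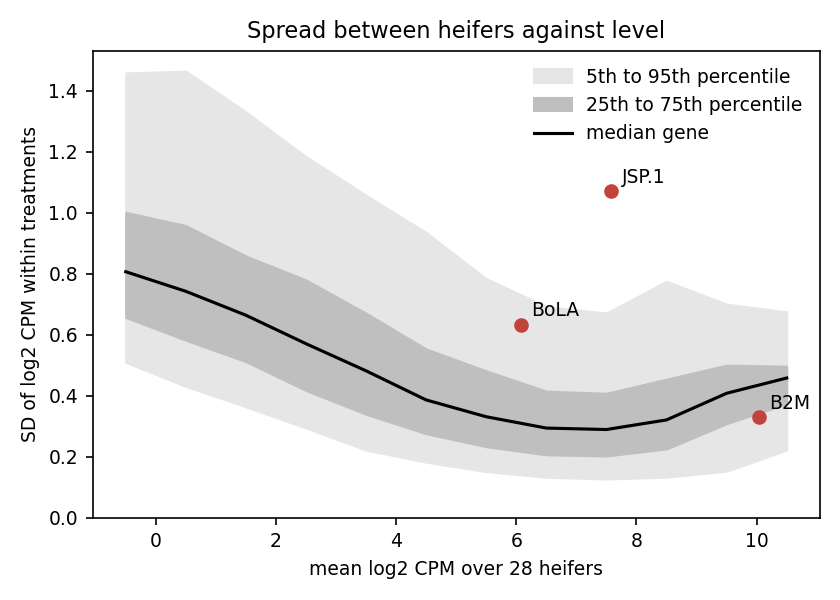
SD of log2 CPM between heifers within treatments (vertical axis) against the mean log2 CPM over the 28 heifers (horizontal axis); the line is the median gene and the shaded bands hold the middle of all genes at each level. JSP.1 (SD 1.07) lies above the 5th to 95th percentile band, BoLA (SD 0.63) in its upper part and B2M (SD 0.33) below the median gene.

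Across the 28 heifers B2M and BoLA were related with Pearson r = 0.45 (permutation p = 0.0148) and Spearman rho = 0.50 (permutation p = 0.00681). Over the 12 relations computed (66 p-values) the adjusted values were 0.109 and 0.0899, so the relation did not pass. Without the 2 heifers farthest from the median of BoLA r was 0.47, without LF8 it was 0.38, and with the mean of each treatment removed it was 0.38 (permutation p = 0.0404, adjusted 0.157). Within treatments r was 0.48 in HF, 0.45 in LF and 0.35 in CTRL heifers. In LF heifers r was 0.08 without the 2 farthest animals and in CTRL heifers -0.12. B2M and JSP.1 had r = 0.39 (permutation p = 0.0447, adjusted 0.164) and rho = 0.53 (permutation p = 0.00468, adjusted 0.0899). For BoLA and JSP.1 r was 0.26 (permutation p = 0.175) and rho 0.29 (permutation p = 0.134), and r was 0.09 with treatment means removed (permutation p = 0.648). In LF heifers alone BoLA and JSP.1 had r = 0.67 (permutation p = 0.0194, adjusted 0.128), in HF heifers 0.10 and in CTRL heifers -0.36.

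**Figure D4:**
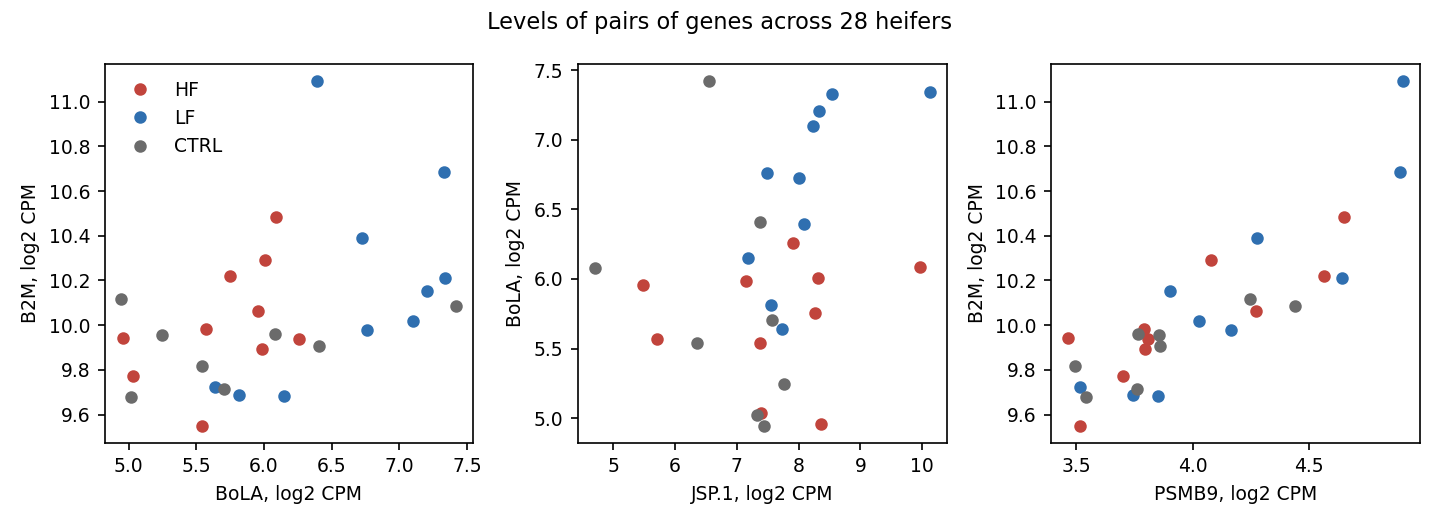
Log2 CPM of B2M against BoLA (left), BoLA against JSP.1 (middle) and B2M against PSMB9 (right), 1 point per heifer, coloured by treatment. With treatment means removed, r was 0.85 for B2M and PSMB9, 0.38 for B2M and BoLA and 0.09 for BoLA and JSP.1. PSMB9 was picked as the named gene with the highest r with B2M and BoLA was not, so these r are not compared. The points keep the treatment means.

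The genes whose levels were most like those of B2M included subunits of the immunoproteasome. Over 28 heifers, with treatment means removed and 15162 other genes compared, the named genes with the highest r were PSMB9 (0.85), COX4I1 (0.83), PSMB8 (0.81), C15orf48 (0.80) and SLC50A1 (0.80). PSMB9 and PSMB8 are the interferon-inducible catalytic subunits of the immunoproteasome, which cuts peptides for class I molecules, and COX4I1 is a subunit of cytochrome c oxidase. PSMB9 ranked 12th and PSMB8 70th of all genes. Listed immune genes that followed were IFI35 (0.77) and the class II alpha chain BOLA-DRA (0.76), while BoLA itself ranked 4143rd. The highest r of any gene was 0.89, for ENSBTAG00000015099, an ID without a name here. These correlations are descriptions, as the libraries share depth and composition, and only 1512 of the compared genes carried a name.

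For BoLA the named genes with the highest r were CTPS1 (0.64), KCNK1 (0.63), RCAN1 (0.61), MAPKAPK2 (0.58) and KCMF1 (0.56). CTPS1 makes cytidine triphosphate, KCNK1 is a potassium channel, RCAN1 restrains calcineurin, and MAPKAPK2 is a kinase downstream of p38. None is a gene of antigen presentation. KRT8, the epithelial keratin, had 0.54 and PSMB9 0.52. B2M ranked 2019th for BoLA (0.38) and JSP.1 5945th (0.09). An ID without a name, ENSBTAG00000008933, had the highest r of any gene (0.77).

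Other partners and relatives of class I were described from lists of the pathway. The names at hand came mostly from a table sorted by p-value for LF against CTRL heifers, so they lean to small p-values. An unadjusted p under 0.05 was found for 16.0% of all genes tested in HF against CTRL, 5.65% in LF against CTRL and 7.92% in HF against LF. Among named genes it was found for 38.1% of named genes in HF against CTRL, 44.6% in LF against CTRL and 10.4% in HF against LF. A log2FC above 0 was found for 46.4%, 51.8% and 43.2% of all genes tested, and for 49.1%, 49.0% and 50.0% of the named genes. None of the named partner, class II, interferon-stimulated and epithelial genes passed an adjusted p under 0.05 in edgeR or DESeq2 in any of the 3 comparisons.

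**Figure D5:**
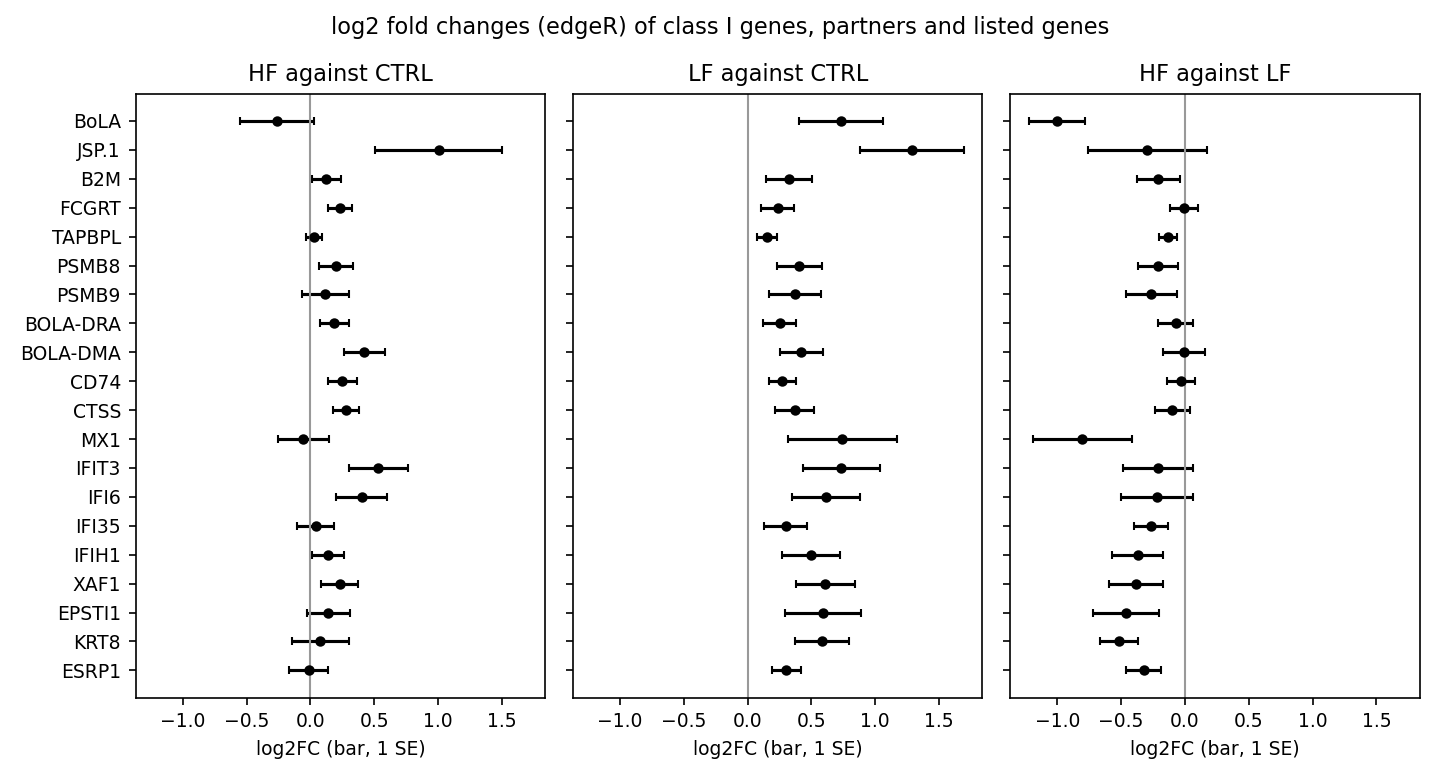
Log2FC (edgeR) with 1 standard error for the class I genes, B2M, and the named genes of class I-like chains, peptide loading, the immunoproteasome, class II, interferon response and epithelium, in the 3 comparisons. In HF against LF the points lie at or left of 0, with BoLA at -1.003; BoLA in that panel is a description because the contrast chose it.

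FCGRT, the heavy chain of the neonatal Fc receptor and like BoLA a partner of B2M, was 1 of 11 listed class I-like chains with a name. It stood at 274 ± 31.1 CPM in HF (SD, n = 10), 273 ± 59.5 CPM in LF (SD, n = 10) and 233 ± 35.2 CPM in CTRL heifers (SD, n = 8). Its log2FC was 0.24 in HF and in LF against CTRL (edgeR adjusted p = 0.239 and 0.874). TAPBPL, the peptide editor related to tapasin, was the only named gene of 12 for peptide loading and had a log2FC of 0.03 in HF and 0.15 in LF against CTRL and -0.13 in HF against LF (edgeR adjusted p = 0.863, 0.874 and 0.651). The immunoproteasome subunits PSMB8 and PSMB9 were 2 of 11 listed. PSMB8 had a log2FC of 0.20 in HF and 0.41 in LF against CTRL (edgeR adjusted p = 0.461 and 0.874), and PSMB9 one of 0.12 and 0.37 (edgeR adjusted p = 0.779 and 0.874). Both were below 0 in HF against LF, at -0.21 and -0.26. Without LF7 the PSMB8 values fell to 0.26 in LF against CTRL and -0.07 in HF against LF, and that of PSMB9 in HF against LF to -0.17. LF7, highest in B2M, was also the highest LF heifer in PSMB8 (253 CPM) and PSMB9 (29.8 CPM). None of the 15 listed regulators of class I transcription and none of the 12 listed interferons and their receptors had a name, so they were not analysed here.

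Class II molecules present peptides from outside the cell and are carried mainly by professional antigen-presenting cells. Of 14 listed, 4 had a name: BOLA-DRA, BOLA-DMA (which loads class II), the invariant chain CD74 and the protease CTSS. All 4 had a log2FC above 0 against CTRL, with a median of 0.26 in HF and 0.32 in LF heifers, and 3 of 4 stood at an unadjusted p under 0.05 in each. The medians over all genes were -0.02 and 0.01, and over named genes -0.01 and -0.12. Among named genes an unadjusted p under 0.05 was found for 38.1% and 44.6%, and a log2FC above 0 for 49.1% and 49.0%. Names lean to small p-values in LF against CTRL, so these counts are a description. Values for HF and LF were 0.19 and 0.25 for BOLA-DRA, 0.42 and 0.42 for BOLA-DMA, 0.25 and 0.27 for CD74, and 0.28 and 0.37 for CTSS (edgeR adjusted p = 0.203 to 0.435 in HF and 0.874 in LF). Between HF and LF their median was -0.05. Markers of the macrophages that carry class II summed over C1QA, C1QB and C1QC, 3 of 13 listed, to a median of 159 CPM in HF (105 to 257), 167 CPM in LF (102 to 227) and 138 CPM in CTRL heifers (91.9 to 197), and none was at 0. The T and NK cell markers CD247, CD4 and PRF1, 3 of 16 listed, summed to medians of 19.9 CPM in HF (15.2 to 25.2), 19.97 CPM in LF (15.1 to 30.5) and 16.1 CPM in CTRL heifers (11.2 to 19.1), with none at 0. CD247 had a log2FC of 0.30 in HF and 0.37 in LF against CTRL, and CD4 one of 0.81 and 0.44 (edgeR adjusted p = 0.270, 0.874, 0.245 and 0.876). VIM, the 1 named marker of 8 for stroma, ran from 2120 to 3071 CPM in HF, from 1568 to 3173 CPM in LF and from 1351 to 2471 CPM in CTRL heifers. Its log2FC was 0.40 in HF against CTRL (edgeR adjusted p = 0.158, DESeq2 adjusted p = 0.0317) and 0.28 in LF against CTRL (edgeR adjusted p = 0.874). The part of these cell types in the class I and class II values was not tested.

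Interferon-stimulated genes share with class I genes their response to interferon. Of 41 listed, 7 had a name, and 6 of 7 had a log2FC above 0 in HF against CTRL, 7 of 7 in LF against CTRL and 0 of 7 in HF against LF (medians 0.14, 0.61 and -0.37). At an unadjusted p under 0.05 stood 1, 4 and 0 of them. Among all named genes a log2FC above 0 was found for 49.1%, 49.0% and 50.0%, and an unadjusted p under 0.05 for 38.1%, 44.6% and 10.4%. Names came mostly from a list sorted by p-value for LF against CTRL, and HF against LF shares the LF heifers. These counts are therefore a description. XAF1, a pro-apoptotic factor, had a log2FC of 0.23 in HF and 0.61 in LF against CTRL (edgeR adjusted p = 0.450 and 0.874). IFIT3, an antiviral protein, had 0.53 and 0.73 (edgeR adjusted p = 0.271 and 0.874), and IFI6 had 0.40 and 0.62 (edgeR adjusted p = 0.329 and 0.874). MX1, an antiviral GTPase chosen here after its values were seen, ran from 42.2 CPM in LF1 to 575 CPM in LF10 among LF heifers (median 88.2), against 47.0 to 140 CPM in HF (median 89.8) and 63.8 to 131 CPM in CTRL heifers (median 76.9). Its log2FC in LF against CTRL was 0.74, and 0.16 without LF10, when that of IFIT3 was 0.49. LF10 was also the highest LF heifer in IFIT3, IFIH1, XAF1 and EPSTI1, whereas LF7 was the highest in B2M, PSMB8, PSMB9, IFI35 and all 4 class II genes. LF1, highest in BoLA and JSP.1 among LF heifers, was the lowest in MX1, IFIH1 and XAF1. The highest LF heifer thus differed between the groups of genes, but some heifers stood high in several. LF8 had 161 CPM of BoLA, 1648 CPM of B2M and 233 CPM of MX1, and was the highest LF heifer in IFI6 (376 CPM). In CTSS it stood at 168 CPM, below the LF median of 172. LF10 had 148 CPM of BoLA and LF7 83.8 CPM, where the LF median was 107.

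The named epithelial markers, like BoLA, had their highest median in LF heifers. KRT8 and ESRP1, 2 of 10 listed, summed to a median of 175 CPM in HF (117 to 282), 249 CPM in LF (185 to 298) and 167 CPM in CTRL heifers (98.6 to 265), and neither was at 0. Their unadjusted edgeR p in LF against CTRL was 0.0134 and 0.0165, and names came mostly from a list sorted by p-value for that comparison. Being named thus leaned to a difference of LF heifers, so the high LF median is a description. The same limit holds for the HF against LF values and the covariate fits below. KRT8 had a log2FC of -0.52 in HF against LF (unadjusted p = 0.00270, edgeR adjusted p = 0.450) and ESRP1, a splicing regulator of epithelia, one of -0.32 (unadjusted p = 0.0273, edgeR adjusted p = 0.571). With treatment means removed, the mean log2 CPM of these markers was related to BoLA over the 28 heifers with r = 0.30 (permutation p = 0.153, adjusted 0.327; rho = 0.28, permutation p = 0.161). Its relation to B2M had r = 0.37 (permutation p = 0.00975, adjusted 0.0919; rho = 0.42, permutation p = 0.0227). Without the 2 heifers farthest from the median of that marker mean these r were 0.25 and 0.33. With treatment means kept r was 0.54 for BoLA and 0.46 for B2M, and for BoLA that value holds the difference by which the gene was chosen. With the markers as a covariate, the log2FC of BoLA in HF against LF was -1.03, that of BoLA in LF against CTRL was 0.18, and those of B2M were 0.01 in HF against LF and 0.13 in LF against CTRL. Shares of epithelial cells were not measured.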

How the data were processed

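Poly(A) RNA of 28 heifers was sequenced from stranded libraries as paired reads. After trimming, the authors mapped reads with STAR to the ARS-UCD1.2 assembly and assigned those that mapped uniquely to Ensembl genes. The deposited files hold raw counts without normalization. STAR 2.6.1b and Subread 1.6.3 are the tools in the notes of the submitters, and no source used here gives the strand setting.

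The files hold gene IDs only. Names for 1522 IDs came from the tables of the paper and from the part at hand of its supplementary sheet for LF against CTRL, which is sorted by p-value. The genes described and all gene lists were chosen with earlier results of these data known.

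Every comparison was fitted with the heifers of its 2 treatments only, in R 4.3.3 with edgeR 4.0.16 (TMM, filterByExpr at a minimum count of 10, quasi-likelihood test, Benjamini-Hochberg adjustment over all genes, threshold 0.05). DESeq2 1.42.0 was the other tool. CPM were normalized over all 28 heifers, and log2 CPM used a prior count of 2. Genes of like mean lay within 1 log2 unit. Correlation p-values came from 100000 permutations, exact for the 8 CTRL heifers, 2-sided, and within treatments where treatment means were removed. Both fits were tested on simulated data. Heifers were the replicates, and no pair of one treatment was a duplicate (chi-square per degree of freedom at least 16.4 in 118 pairs). BoLA, B2M and JSP.1 were named in full, with the named genes of each pathway list of smallest p and the 5 named genes most correlated with each chain. Alternatives were RLE size factors, no filter on low counts, all heifers in one fit, breed, study replicate, a replicate block, counts summed per bull and leaving out each heifer. For breed, those with a single heifer in a comparison were pooled. In both comparisons with HF heifers that pool held no HF heifer, and Belgian blue crosses were all HF. Those log2FC with breed as a covariate therefore rested on Limousin and Charolais crosses. Marker covariates, single study replicates and single breeds were added after seeing the data.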

Additional observations from a re-analysis of the deposited data

Results flagged for a closer look

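In 9 groups of heifers (BoLA, B2M and JSP.1 in each treatment) the gap to the next heifer was set against the range of CPM. Of these groups, 3 had a sample far from the rest. The rule assumes normal values, which CPM on a linear scale need not be, so no rate by chance is given. Log2 CPM were not tested. BoLA in CTRL5 was at 171 CPM, and the next CTRL heifer was at 84.8 CPM. JSP.1 in HF5 was at 1001 CPM, with the next HF heifer at 329 CPM. JSP.1 in LF1 was at 1113 CPM, with the next LF heifer at 373 CPM. B2M had no such heifer. CTRL5 was not high in JSP.1 (93.5 CPM), and HF5 was at 67.9 CPM for BoLA.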

How the results depend on the processing

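BoLA in HF against LF stayed between -1.26 and -0.76 in all alternatives. That contrast chose BoLA on these same heifers, so the range is a description and nothing is read from its steadiness. For calls over all genes, edgeR gave 0 in each comparison, while DESeq2 gave 328 in HF against CTRL, 2 in LF against CTRL and 27 in HF against LF. With epithelial markers as a covariate HF against CTRL gave 1, and with a heifer left out 0 to 91 (91 without CTRL2). The cause was not tested. The log2FC of BoLA in HF against CTRL changed sign in study replicate 1 alone (0.13), and with a heifer left out ran from -0.37 to 0.12 (0.12 without CTRL5). B2M changed sign in Limousin crosses alone (LF against CTRL -0.030, HF against LF 0.051) and with epithelial markers as a covariate (HF against LF 0.010). JSP.1 in HF against LF was 0.24 with that covariate, -1.28 in Charolais crosses alone (LF1 among them) and -0.77 with breed as a covariate. With a heifer left out it ran from -0.78 to 0.13. Other changes of sign were PSMB9 (-0.057) and ESRP1 (0.082) in HF against CTRL with breed as a covariate, and BOLA-DMA (0.0019) and FCGRT (0.0002) in HF against LF with all heifers in one fit. FCGRT was 0.0093 with counts summed per bull. The relation of B2M and JSP.1 fell to r = 0.29 with treatment means removed. With a heifer left out, r ran from 0.38 to 0.51 for B2M and BoLA, and from 0.32 to 0.42 for B2M and JSP.1. With a heifer left out, the log2FC in HF against CTRL ran from -0.17 to 0.054 for MX1, from -0.034 to 0.22 for KRT8 and from -0.097 to 0.059 for ESRP1. In HF against LF it ran from -0.15 to 0.0064 for BOLA-DRA, from -0.080 to 0.059 for BOLA-DMA, from -0.083 to 0.015 for CD74, from -0.13 to 0.034 for CTSS, from -0.050 to 0.052 for FCGRT and from -0.30 to 0.036 for IFIT3.

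The replicate numbers of the labels mark neither animals nor bulls shared between treatments, and heifers with a shared number had deviations correlated above 0.1 in only 5 of 8 pairs for HF and CTRL, 4 of 8 for LF and CTRL and 5 of 10 for HF and LF. With the replicate block, BoLA had a log2FC of -0.09 in HF against CTRL, 0.92 in LF against CTRL and -0.94 in HF against LF, B2M had 0.13, 0.32 and -0.16, and JSP.1 had 0.61, 1.27 and -0.58. In LF against CTRL the block took MX1 from 0.74 to 0.085, IFIT3 from 0.73 to 0.42 and IFI6 from 0.62 to 0.39, and in HF against LF it took MX1 from -0.80 to -0.38. The block changed the sign of ESRP1 in HF against CTRL (0.030) and of FCGRT in HF against LF (0.012), and edgeR still called 0 genes in each comparison.

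Uniquely mapped reads cannot place sequence that class I genes share, which limits the levels of BoLA and JSP.1 but touches B2M less. CTRL5 limits each comparison of BoLA with CTRL, and LF7 those of B2M with LF. Names covered few genes of each pathway, so the unnamed partners were not analysed here.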
